A study of Homo sapiens with 8 samples.

Results

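The snoRNA host genes described here are 10 noncoding genes, GAS5, SNHG1, SNHG5, SNHG7, SNHG8, SNHG12, SNHG15, SNHG16, ZFAS1 and EPB41L4A-AS1. They were taken as listed symbols, and their probes were found through the transcript accession that the array design gives each probe. Probes were matched for 9 of the 10, out of 19043 genes measured in all. No probe was matched to SNHG16, so counts of levels, ratios and slopes below are out of the 9 measured transcripts.

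RNA was measured in A549, a long-established line of lung carcinoma cells of human origin, on 8 one-colour Agilent arrays. EEDS is the ethanol extract of the seeds of Descurainia sophia, and helveticoside is a cardiac glycoside, a class of compounds that block the sodium pump. In the EEDS series the cells received the control or 1.25, 5 or 20 μg/mL of the extract, and in the helveticoside series the control or 3.75, 15 or 60 nM of the compound. The labels give an exposure of 48 h, whereas the methods of the study give a shorter one for the gene expression experiment. No genetic change or second agent is named for any group. The RNA of 3 cultures was pooled for each array. With only 1 array at each dose, the spread between replicates of a dose is unknown, and a single dose carries no p-value. Each agent was run in its own series with its own control, and agent and series cannot be told apart. In each series the arrays also lay along the scan axis in the order of dose, so dose and array position cannot be told apart either.

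A snoRNA host gene is transcribed as a long precursor whose introns carry small nucleolar RNAs. The introns are processed into snoRNAs, which guide the chemical modification of ribosomal RNA, while the exons are spliced into a second RNA that leaves the nucleus. Many of these spliced RNAs carry only short open reading frames, are read by ribosomes and are then destroyed by nonsense-mediated decay (NMD), a pathway that acts only while translation is running. Their level is therefore known to rise in cells in which translation or NMD is blocked. Several of these genes, like those of ribosomal proteins, start within a pyrimidine-rich tract.

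The stretches from 45 bases before to the first 15 bases of the annotated RNA are shown for 7 of the genes, so that each dose pattern described below is represented, since this is where the machinery that starts transcription binds. They are from RefSeq (GRCh38.p14), 5′ to 3′ on the strand of the gene, and capitals mark the letters TATAA, the core of the TATA box, where they lie between bases 40 and 21 before the start.
SNHG12, minus strand, chr1:28581859-28581918: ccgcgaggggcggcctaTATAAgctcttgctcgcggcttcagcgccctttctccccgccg
SNHG1, minus strand, chr11:62855871-62855930: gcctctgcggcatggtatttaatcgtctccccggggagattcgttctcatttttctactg
SNHG8, plus strand, chr4:118278717-118278776: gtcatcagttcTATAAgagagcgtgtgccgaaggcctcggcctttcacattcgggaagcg
ZFAS1, plus strand, chr20:49278597-49278656: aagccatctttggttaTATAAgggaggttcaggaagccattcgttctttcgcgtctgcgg
GAS5, minus strand, chr1:173869031-173869090: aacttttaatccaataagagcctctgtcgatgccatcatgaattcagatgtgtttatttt
SNHG5, minus strand, chr6:85678719-85678778: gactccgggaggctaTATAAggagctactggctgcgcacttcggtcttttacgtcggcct
SNHG7, minus strand, chr9:136728170-136728229: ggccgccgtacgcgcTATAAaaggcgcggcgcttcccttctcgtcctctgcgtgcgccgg

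The letters TATAA stood in this place in 5 of the 9 listed genes with a sequence (SNHG16 included, SNHG15 not), namely SNHG5, SNHG7, SNHG8, SNHG12 and ZFAS1, and in 4.07% of 27305 gene starts in the same table. A run of a C and at least 5 further pyrimidines within 10 bases of the start was found in 3 of the 9, SNHG7, SNHG8 and SNHG12, and in 16.6% of all starts. On the opposite strand the TATAA search matched 1 of the 9, in letters of ZFAS1 that overlap those shown in capitals, and 1.58% of all starts, and the pyrimidine run matched 0 of the 9 and 13.6% of all starts. The genes called below for a dose slope, SNHG1 and SNHG12, differed in this respect, since SNHG12 carries the letters TATAA and SNHG1 does not.

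All 9 transcripts gave a signal well above background, by the scanner software's own call, on all 8 arrays. A level is given as the log2 of the normalized signal, which can be compared between arrays for 1 probe but not between probes. A ratio is the log2 level on a treated array minus that on the control of its series, so that a ratio of 1 is a 2-fold rise. The scanner software's own error for the spots of these transcripts was 10% to 14.5%. The lowest of these errors comes to about 0.20 on the log2 scale for a ratio of 2 arrays. The software's error does not include differences between cultures. Since these are bulk RNA samples, fewer cells and less RNA per cell cannot be told apart. The epithelial keratins KRT8, KRT18 and KRT19 were well above background on all 8 arrays, and of 7 markers of blood, endothelium and fibroblasts, CD3E, PECAM1, DCN and COL1A2 were above it on 0 arrays. LUM was above it on 2 arrays, and PTPRC and CDH5 on 8, with ratios of 0.20 and 0.10 at 20 μg/mL EEDS and 0.20 and 0.19 at 60 nM helveticoside.

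Most of the host transcripts stood above their control after either agent. On all 3 EEDS arrays, 8 of 9 were above the control, where 39.6% of all genes were, and the exception was SNHG7. On all 3 helveticoside arrays, 6 of 9 were above the control against 24.8% of all genes, with SNHG5, SNHG7 and SNHG15 as the exceptions. This count includes ratios under the error of the spots of about 0.20. At 3.75 nM they were 0.07 for SNHG1, 0.16 for GAS5 and 0.16 for EPB41L4A-AS1. SNHG5 was an exception through a ratio of -0.05 at 60 nM, which is also smaller than that error. The median ratio of the 9 transcripts was 0.72, 0.86 and 0.95 at 1.25, 5 and 20 μg/mL EEDS. It was 0.16, 0.48 and 0.75 at 3.75, 15 and 60 nM helveticoside. The median over all genes lay between -0.04 and 0.02 on the 6 treated arrays.

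More than 2-fold higher than the control were 2 of 9 at 1.25 μg/mL EEDS (SNHG8 and SNHG12), where 4.22% of all genes were. At 5 μg/mL the same 2 transcripts passed this size, and 7.34% of all genes. At 20 μg/mL it was 4 of 9, SNHG1, SNHG8, SNHG12 and SNHG15, against 13.3% of all genes. For helveticoside the counts were 0 of 9 at 3.75 nM, 0 of 9 at 15 nM and 2 of 9 at 60 nM (SNHG1 and SNHG15), and the shares of all genes were 3.38%, 7.08% and 10.8%. More than 2-fold lower than the control was 1 transcript on 1 array, SNHG7 at 1.25 μg/mL EEDS, where 3.66% of all genes were as low. This count rests on the brighter of the 2 SNHG7 probes, and the second one, described below, was more than 2-fold lower on all 6 treated arrays. The transcripts above the 90th percentile of all genes were 5, 5 and 3 of 9 over the EEDS doses and 0, 1 and 1 of 9 over the helveticoside doses.

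**Figure D1:**
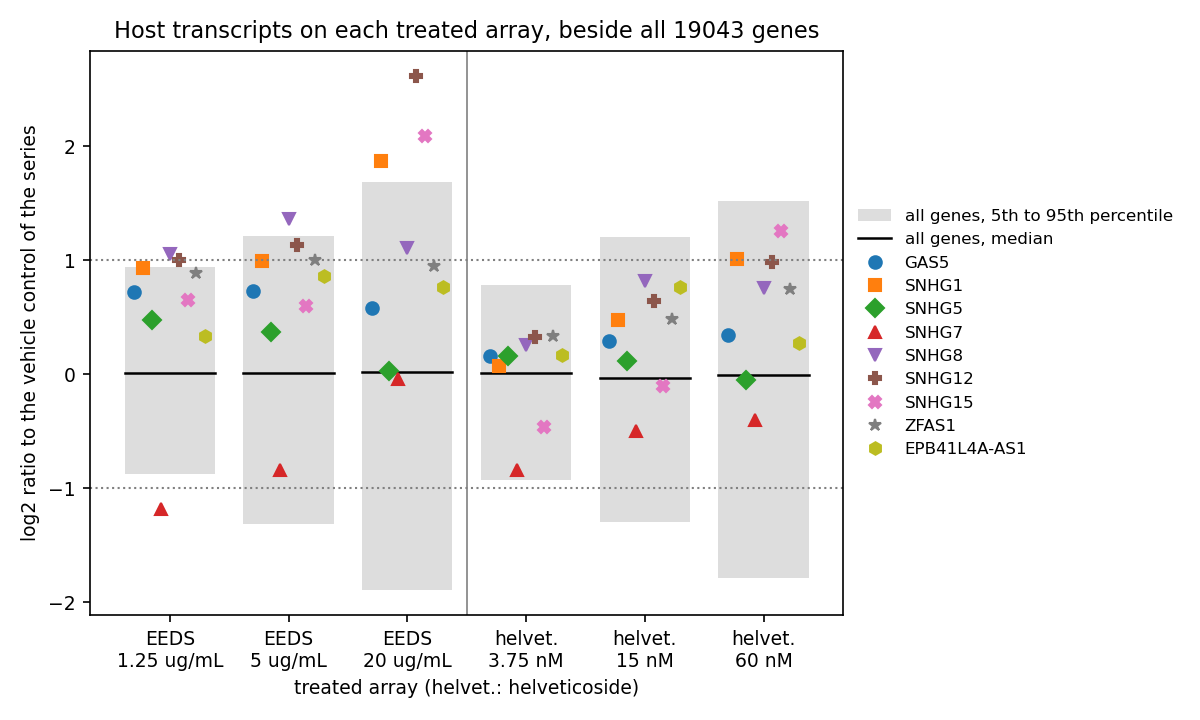
The log2 ratio to the control of the series (vertical axis) is plotted for the 9 measured host transcripts on each of the 6 treated arrays (horizontal axis), 1 array per dose. Grey bars run from the 5th to the 95th percentile of all genes, black lines mark their median, and dotted lines mark 2-fold. SNHG12, SNHG15 and SNHG1 lie above the grey bar at 20 μg/mL EEDS, with ratios of 2.61, 2.09 and 1.87, and SNHG7 lies below the median on all arrays.

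The patterns over dose fell into 4 shapes, which were set apart after their values were seen. SNHG1, SNHG12 and SNHG15 were highest at the top dose of both agents. SNHG12 carries snoRNAs of both main classes, those that guide methylation and those that guide pseudouridylation. Its level was 8.95 on the EEDS control and 9.95, 10.08 and 11.56 at 1.25, 5 and 20 μg/mL. On the helveticoside control it was 9.36, followed by 9.69, 10.00 and 10.34 at 3.75, 15 and 60 nM. SNHG12 was higher at every dose step in both series, with a single large step of 1.48 between 5 and 20 μg/mL EEDS. Its step of 0.13 between 1.25 and 5 μg/mL was under the error of the spots. At 20 μg/mL SNHG12 was 6.11-fold above the control, the largest rise among the 9.

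SNHG1 carries a long series of methylation guides in its introns. Its level was 10.88 on the EEDS control and 11.81, 11.87 and 12.74 at the 3 doses. On the helveticoside arrays it was 11.12 for the control and then 11.19, 11.60 and 12.13. SNHG1 was also higher at every step in both series. These were the 2 of 9 transcripts with that order for EEDS, where 19.3% of all genes had it, and GAS5 and ZFAS1 joined them for helveticoside, which made 4 of 9 against 12.3% of all genes. SNHG1 was 3.65-fold above the control at 20 μg/mL and 2.01-fold at 60 nM. At 3.75 nM its ratio of 0.07 was under the error of the spots.

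SNHG15 carries a pseudouridylation guide. Its level was 10.00 on the EEDS control and 10.65, 10.60 and 12.09 at the 3 doses. In the helveticoside series it was 10.06 on the control and 9.60, 9.96 and 11.31. Here the lower doses of the agents lay on opposite sides of the control, whereas the top dose of both was well above it, at 4.26-fold for EEDS and 2.39-fold for helveticoside. The step from the middle to the top dose was 1.49 and 1.35.

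GAS5, SNHG8, ZFAS1 and EPB41L4A-AS1 had in common that their EEDS levels were above the control and no higher at 20 μg/mL than at 5 μg/mL. SNHG8, which carries a pseudouridylation guide, had a level of 13.61 on the EEDS control and 14.66, 14.97 and 14.72 at the 3 doses. With helveticoside it went from 13.97 on the control to 14.23, 14.79 and 14.73. Its ratio passed 2-fold at all 3 EEDS doses, the only one of the 9 to do so besides SNHG12, and at no helveticoside dose.

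ZFAS1, named for lying antisense to ZNFX1, carries methylation guides. Its level was 14.45 on the EEDS control and 15.33, 15.44 and 15.40 at the 3 doses. With helveticoside its level was 14.76 on the control and 15.10, 15.24 and 15.51, each above the dose before. The EEDS ratios of 0.88, 0.998 and 0.95 thus differed by less than the error of the spots between 1.25 and 20 μg/mL.

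GAS5, named for its build-up in growth-arrested cells, carries a long series of methylation guides. Its level was 14.99 on the EEDS control and 15.71, 15.72 and 15.56 at the 3 doses. The helveticoside arrays had 15.18 on the control and 15.33, 15.47 and 15.52. GAS5 was thus 1.65-fold above the EEDS control at the lowest dose and 1.49-fold at the top dose, and 1.27-fold above the helveticoside control at 60 nM.

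EPB41L4A-AS1, an antisense neighbour of EPB41L4A with a pseudouridylation guide in an intron, had a level of 13.27 on the EEDS control and 13.61, 14.13 and 14.04 at the 3 doses. In the helveticoside series it was 13.52 on the control and 13.69, 14.28 and 13.80. In both series its highest level was at the middle dose.

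SNHG5, a host of methylation guides, was close to its control at the top dose of both agents. Its level was 15.76 on the EEDS control and 16.24, 16.14 and 15.79 at the 3 doses. In the helveticoside series it was 16.04 on the control and 16.20, 16.15 and 15.99. Its ratio was 0.48 at 1.25 μg/mL and 0.03 at 20 μg/mL. The sign at 20 μg/mL turned to -0.05 with the deposited value table and to -0.25 against the helveticoside control. At 60 nM the ratio was -0.05, and it was 0.21 with arrays scaled to the 75th percentile and 0.23 against the EEDS control.

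**Figure D2:**
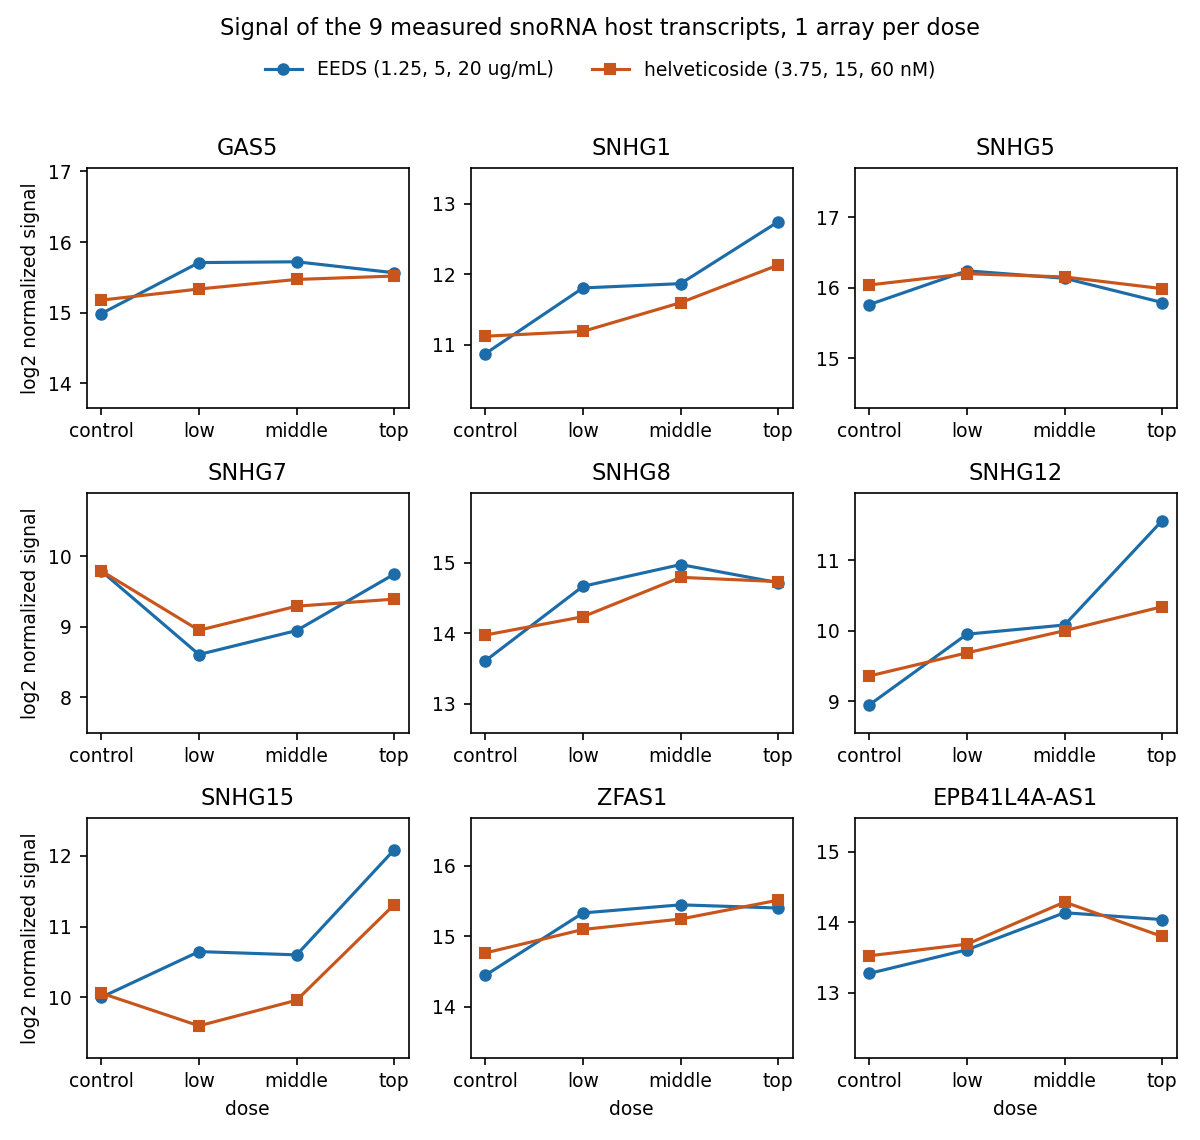
Each panel shows the log2 normalized signal (vertical axis) of 1 host transcript on the control and at the low, middle and top dose (horizontal axis) of EEDS (blue circles) and helveticoside (orange squares), with 1 array per point and panels of equal height in log2 units. SNHG1, SNHG12 and SNHG15 are highest at the top dose, GAS5, SNHG8, ZFAS1 and EPB41L4A-AS1 have levelled off by the middle EEDS dose, and the panel of SNHG7 dips at the low dose.

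SNHG7, a host of pseudouridylation guides, lay below its control instead. With the brighter of its 2 probes, its level was 9.79 on the EEDS control and 8.61, 8.95 and 9.75 at the 3 doses. In the helveticoside series it was 9.79 on the control and 8.95, 9.29 and 9.39. The lowest dose of each agent was thus the lowest array, and the 20 μg/mL array was within 0.04 of its control.

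The second SNHG7 probe, which the array design assigns to another RefSeq transcript of the gene, was lower still at the higher doses. Its level was 10.28 on the EEDS control and 8.94, 8.01 and 8.16 at the 3 doses. Over the helveticoside arrays it was 10.01 on the control and 8.97, 7.34 and 6.97. At the lowest doses the probes had ratios of -1.18 and -1.34 for EEDS and -0.84 and -1.04 for helveticoside. At the top doses they were apart, at -0.04 and -2.12 for EEDS and -0.40 and -3.04 for helveticoside. The probes were therefore alike at the lowest dose but not at the later ones, and no single value stands for SNHG7 at the higher doses. The other 8 transcripts had 1 probe each.

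**Figure D3:**
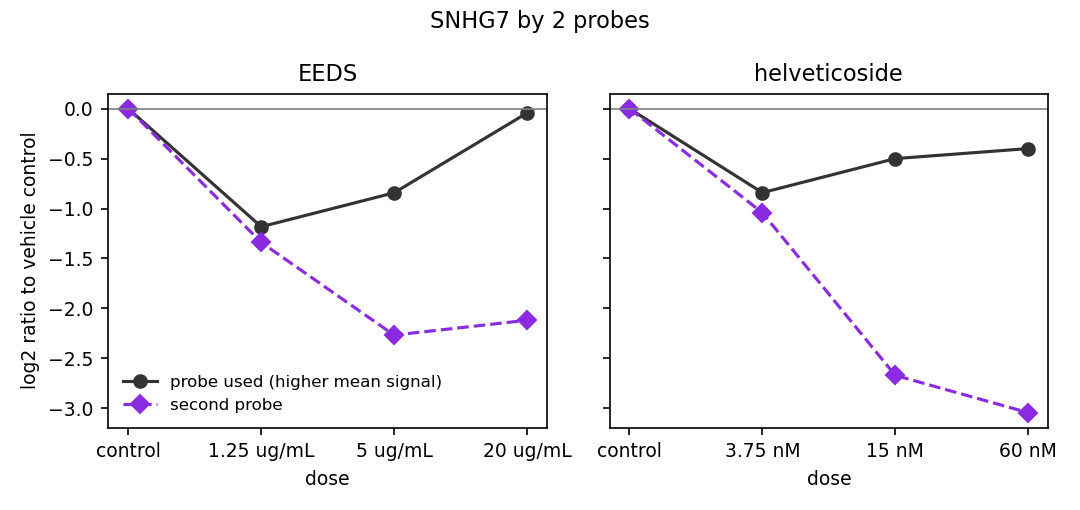
The log2 ratio of SNHG7 to the control of the series (vertical axis) is plotted over dose (horizontal axis) for EEDS (left) and helveticoside (right), with 1 array per point. The probe with the higher mean signal (solid line, circles) returns to -0.04 at 20 μg/mL, whereas the second probe (dashed line, diamonds) is at -2.12 there and to -3.04 at 60 nM.

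To test for a trend over dose, limma was fitted to all 19043 genes over the 8 arrays, with a level and a slope per dose step for each series. Among all genes, 7.26% had a rising and 7.85% a falling EEDS slope at an adjusted p under 0.05, and 5.49% and 5.81% a rising and a falling helveticoside slope. With EEDS, 2 of the 9 host transcripts were called as rising and 0 as falling. SNHG12 had a slope of 0.80 per dose step (standard error 0.11, adjusted p = 0.0174), and SNHG1 one of 0.57 (standard error 0.09, adjusted p = 0.0216). The 7 others had adjusted p-values of 0.0966 (ZFAS1) and above. At an unadjusted p under 0.05 it was 6 of 9 as rising, with SNHG8, SNHG15, ZFAS1 and EPB41L4A-AS1 added, against 3125 of 19043 genes, and 0 as falling.

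Neither call held in the fits without the EEDS control array, without the 20 μg/mL array and without the 15 nM helveticoside array. There SNHG12 had an adjusted p of 0.133, 0.153 and 0.0507, and SNHG1 one of 0.166, 0.187 and 0.0556. The rising genes of the whole array were 1383 with all arrays and 0, 0 and 457 in those fits.

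With helveticoside, limma called 0 of 9 host transcripts as rising and 0 as falling. At an unadjusted p under 0.05 it was 2 of 9, SNHG1 and SNHG12, against 2787 of 19043 genes, and 0 of 9 were falling. SNHG1 had the lowest adjusted p, 0.0734, with a slope of 0.34 (standard error 0.09), and SNHG15 the steepest slope, 0.41 (standard error 0.22, adjusted p = 0.28). The median slope of the 9 transcripts was 0.30 for EEDS and 0.24 for helveticoside, and that of all genes 0.01 and -0.01. A straight slope describes the transcripts that levelled off early less well than those that rose to the top dose.

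The slopes of the agents differed for 0 of the 9 transcripts and 0% of all genes at an adjusted p under 0.05. At an unadjusted p under 0.05 limma gave 525 of 19043 genes, among them 1 of the 9, SNHG12. For SNHG12 the EEDS slope was higher by 0.47 (standard error 0.16, adjusted p = 1). This does not show that the agents acted alike, and their doses were not matched.

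**Figure D4:**
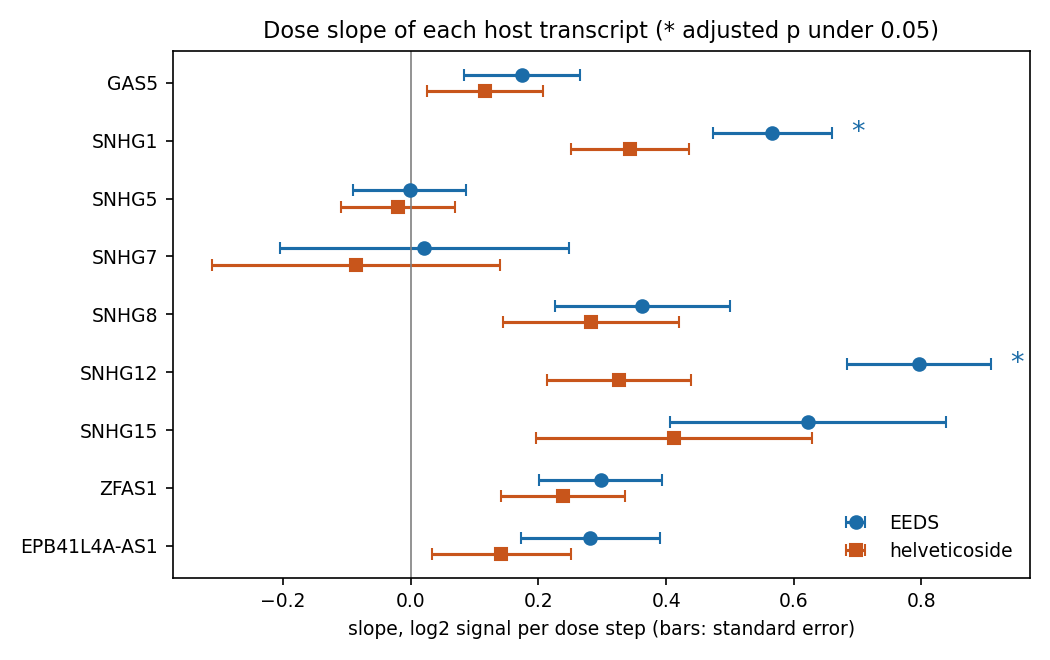
The limma slope in log2 signal per dose step (horizontal axis) is shown with its standard error for each host transcript (vertical axis), with EEDS as blue circles and helveticoside as orange squares. Stars mark an adjusted p under 0.05, which only the EEDS slopes of SNHG1 (0.57) and SNHG12 (0.80) reached.

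The 2 control arrays, the only pair without an agent, were not alike in these transcripts. All 9 were higher on the helveticoside control than on the EEDS control, as were 45.7% of all genes. The differences ran from 0.00 (SNHG7) to 0.41 (SNHG12) with a median of 0.25, whereas the median over all genes was -0.04. Those of SNHG7, SNHG15 (0.06) and GAS5 (0.19) were under the error of the spots. The difference was 0.37 for SNHG8 and 0.32 for ZFAS1. Set against the helveticoside control instead, the EEDS ratios were lower: that of SNHG8 at 20 μg/mL was 0.74 in place of 1.11, and 3 of 9 transcripts in place of 4 passed 2-fold. Set against the EEDS control, 5 of 9 passed 2-fold at 60 nM helveticoside in place of 2. The shares of all genes past 2-fold with the controls exchanged are not given here. The ratios of SNHG12, SNHG15 and SNHG1 at 20 μg/mL stayed at 2.20, 2.03 and 1.62 with the other control. The part of the control arrays in the higher ratios of the EEDS series was not tested.

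None of the 35 snoRNAs known from the introns of the 10 genes was among the genes with a probe, so the spliced RNAs cannot be set beside their own snoRNAs here. Near the start of the genes, the table of starts held a protein-coding gene within 5000 bases for 3 of the same 9 genes with a sequence (SNHG16 included, SNHG15 not). ZBTB37, which starts 665 bases from GAS5 on the opposite strand, had ratios of -0.47, -0.49 and -2.81 over the EEDS doses and -0.34, 0.14 and -1.17 over the helveticoside doses. It was well above background on 5 of 8 arrays and its slopes were not called (adjusted p = 0.0889 for EEDS), and it lay below its control on 5 of 6 treated arrays while GAS5 was above it on all 6. SLC3A2 starts 224 bases from SNHG1, and no probe was matched to it or to the gene at the start of SNHG7.

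Among 10 further noncoding snoRNA hosts, only SNHG9 was called as rising, with both agents, where 7.26% (EEDS) and 5.49% (helveticoside) of all genes were. SNHG9, a host of a pseudouridylation guide, had EEDS ratios of 0.99, 1.74 and 1.87 and helveticoside ratios of 0.01, 1.13 and 1.53 (adjusted p = 0.0309 and 0.0456). The median ratio of these 10 genes was 0.06 at the top dose of either agent, against 0.95 and 0.75 for the 9 transcripts described above. This compares the top doses only. At 1.25 μg/mL EEDS, SNHG6, SNHG10, SNHG29 and DANCR had ratios of 0.40, 0.51, 0.29 and 0.31, each above its ratio at 20 μg/mL. SNHG17 and SNHG20 had 0.00 and -0.04 at 1.25 μg/mL, below theirs at 20 μg/mL, and SNHG4 and SNHG11 had -0.23 and -0.07. On all 3 EEDS arrays, 4 of the 10 were above the control (39.6% of all genes), and on all 3 helveticoside arrays 5 (24.8%). SNHG3 had ratios of 0.91, 0.71 and -0.05 with EEDS and 0.70, 0.76 and -0.13 with helveticoside. SNHG20 had 0.84 and 1.01 at the top doses. SNHG4 was well above background on only 2 arrays. SNHG17 had ratios of 0.45 and 0.65 at the top doses, and DANCR of -0.43 and -0.35, with no slope called.

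The genes of the NMD factors themselves differed among each other. Of 11 NMD factors, 2 were called as rising and 0 as falling with each agent, and these were UPF3B and SMG9 in both. Rising were 7.26% of all genes with EEDS and 5.49% with helveticoside. The EEDS count was 0 without the EEDS control, the 20 μg/mL or the 15 nM array, and the helveticoside count was 0 without the 1.25 or 5 μg/mL, the helveticoside control, the 15 nM or the 60 nM array. At the top dose, 4 of 11 were more than 2-fold higher with each agent, UPF1, UPF3B, SMG5 and SMG9. The shares of all genes were 13.3% with EEDS and 10.8% with helveticoside. This count rests on the brightest probe of each gene. UPF2 had 5 probes, and its brightest had ratios of 0.52 and 0.28 at the top doses. Its other probes had ratios of 0.90 to 2.62 at 20 μg/mL and 0.76 to 1.94 at 60 nM, so UPF2 is uncertain. UPF1, the helicase at the centre of the pathway, had EEDS ratios of -0.07, 1.10 and 2.002 and helveticoside ratios of -0.46, 0.68 and 2.02, with adjusted p-values of 0.0812 and 0.0932.

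UPF3B links the exon junction to UPF1, and its ratios were 1.504, 1.87 and 2.80 over the EEDS doses and 0.05, 1.398 and 2.28 over the helveticoside doses (adjusted p = 0.023 and 0.031). SMG9, which regulates the UPF1 kinase, reached 2.71 and 2.57 at the top doses (adjusted p = 0.034 and 0.0354). SMG5, which binds phosphorylated UPF1, had ratios of 2.24 and 2.14 at the top doses with no slope called (adjusted p = 0.0604 and 0.058). The kinase SMG1 had 6 probes and has near-identical gene copies, so its ratios of 0.34 and 0.35 are uncertain. DHX34 was below its control on all 6 treated arrays, with ratios of -0.51 and -0.49 at the top doses.

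Of 6 exon junction proteins, which mark spliced RNAs for NMD, 0 were called with either agent by limma. At an unadjusted p under 0.05 MAGOH was rising with both agents, as were 16.4% of all genes with EEDS and 14.6% with helveticoside. MAGOHB was falling with helveticoside, as were 15.2% of all genes, with a slope of -0.20 and a ratio of -0.60 at 60 nM. MAGOH had ratios of 1.81 and 0.97 at the top doses (adjusted p = 0.0619 and 0.164), and the core helicase EIF4A3 of -0.50 and -0.58. Of 6 termination and decay enzymes, 2 were called as rising with both agents, the decapping proteins DCP1A and DCP2. The shares of all genes were 7.26% with EEDS and 5.49% with helveticoside. DCP1A had ratios of 1.94 and 1.59 and DCP2 of 2.09 and 1.57 at the top doses. The exonuclease XRN1 had ratios of 1.08 and 0.17 with no slope called.

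Of 8 proteins of the snoRNA particles, SNU13, NOP10 and GAR1 were called as rising with EEDS, and SNU13 and NOP10 with helveticoside. The shares of all genes were 7.26% and 5.49%. NOP10 and GAR1 belong to the pseudouridylation particle, and their ratios at the top doses were 1.10 and 1.42 with EEDS and 0.99 and 1.10 with helveticoside. SNU13, which binds the methylation guides, had ratios of 0.63 and 0.72. The methyltransferase FBL had ratios of -0.12 and -0.23 with no slope called.

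Some protein-coding mRNAs are also known targets of NMD, and many of these are targets of stress signalling as well. Of 10 measured, 6 were called as rising with EEDS (ATF3, MAP3K14, GADD45A, GADD45B, DDIT3 and CDKN1A) and 3 with helveticoside (ATF3, MAP3K14 and CDKN1A). The shares of all genes were 7.26% and 5.49%. ATF3, a stress-induced transcription factor, reached ratios of 7.02 and 5.40 at the top doses with the brightest of its 4 probes. Its probes differed, and the lowest ratios among them were 0.92 and 0.21. GADD45B reached ratios of 5.11 and 4.14. ATF4, the transcription factor of the amino acid response, had ratios of 1.04 and 0.49 with no slope called. MAP3K14 had ratios of 3.77 and 2.99 at the top doses. NAT9 and TBL2 had ratios of -0.09 and 0.17 at 20 μg/mL and -0.53 and 0.55 at 60 nM, with no slope called.

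**Figure D5:**
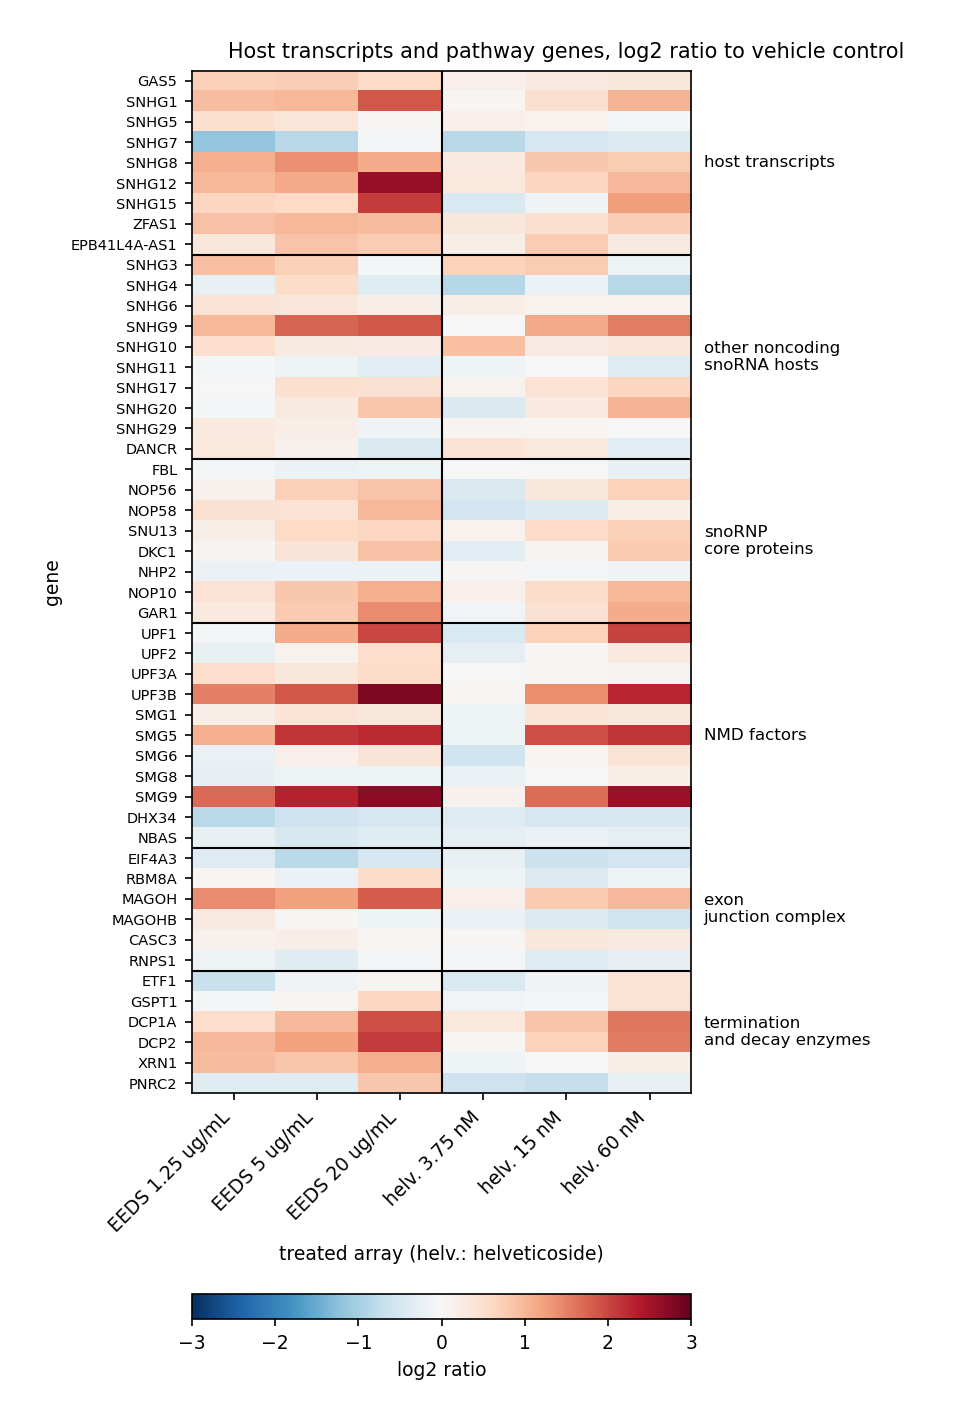
Colours give the log2 ratio to the control of the series on each of the 6 treated arrays (horizontal axis) for the host transcripts and 5 lists of related genes (vertical axis), on a scale from -3 (blue) to 3 (red). The NMD factors UPF1, UPF3B, SMG5 and SMG9 are above 2-fold at the top dose of both agents, and the other noncoding snoRNA hosts reach 1.87 in SNHG9, the deepest red of that list.

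The genes most like the mean of the 9 transcripts over the 6 treated arrays were THUMPD2, RFX7, JMJD1C, AGO4 and PIP4P2, with Pearson's r from 0.995 to 0.996 among 11482 genes that were well above background on all arrays. These 6 points share 2 controls, and r compares shapes and not sizes. The mean of the 9 had EEDS ratios of 0.54, 0.69 and 1.11 and helveticoside ratios of 0.02, 0.33 and 0.55. THUMPD2 had 0.97, 1.13 and 2.12 and then -0.03, 0.51 and 0.97, whereas RFX7, with the same shape, had 0.02, 0.11 and 0.65 and then -0.65, -0.24 and 0.05.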

How the data were processed

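The authors deposited the scanner output of every array, in which the processed signal is an intensity with the background already removed. They also deposited a table of intensity values, which by its values is the median signal minus background, quantile-normalized within each series. Control spots and outlier spots were left out, and the spots of a probe were averaged. Quantile normalization over all 8 arrays and a log2 transform followed. This sets the same distribution on every array, so a change common to most genes is removed. Of 34127 probes, 24809 were matched to 1 gene through their accession and RefSeq's gene table (GRCh38.p14), and each gene was represented by its brightest probe on average. Signals under 1.4 times their background were raised to the lowest signal over that limit on the array, and genes under it throughout a series were left out.

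Samples were grouped by the agent and dose in their titles. Slopes over dose steps 0 to 3 were fitted in R 4.3.3 with limma 3.58.1 (with the trend and robust options, which use statmod 1.5.0), 4 residual degrees of freedom and Benjamini-Hochberg adjustment over all genes. The fit was tested on simulated data. More than 2-fold was the rule of size for single doses. The host genes and the other lists, including markers and housekeeping genes, were chosen with earlier results of these data known. All host genes were named, and from each list the genes with the largest change at the top doses, or any member of the NMD factor, exon junction and snoRNA particle lists. Others were chosen after their values were seen. A few genes of the lists are not reported here. Alternatives changed the signal, background correction, scaling, probe choice, filter, dose scale, control array or arrays fitted. The number of arrays limits the precision. Python 3.11.15 with pandas 2.3.3 and matplotlib 3.10.9 was used.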

Additional observations from a re-analysis of the deposited data

How the results depend on the processing

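There is 1 array per dose, so the trend fit rests on 8 arrays and an assumed straight slope. Over the 10 alternatives for a top dose, SNHG1, SNHG12 and SNHG15 had ratios of at least 1.62, 2.20 and 1.998 at 20 μg/mL EEDS. None of the results changed direction past its threshold. No paired analysis was possible because each group has 1 array.

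Scaling to the 75th percentile moved the median ratio of all genes by -0.38 at 20 μg/mL EEDS and by -0.18 at 60 nM helveticoside. With it the median of the host transcripts at 60 nM was 0.97 in place of 0.75, and 4 of 9 in place of 2 were more than 2-fold higher. With the deposited value table this count was 1. With the control of the other series, chosen after seeing the data, it was 5, and the medians were 0.64 at 20 μg/mL and 1.06 at 60 nM. With only genes or probes well above background on all arrays, 4 host transcripts rose with EEDS (SNHG1, SNHG12, SNHG15 and ZFAS1) in place of 2, and 1 with helveticoside (SNHG1) in place of 0. Scaling to the 75th percentile also gave 1 (SNHG1) with helveticoside. With dose as a share of the top dose, EEDS gave SNHG12 and SNHG15. Leaving out each array in turn gave 0 to 2 rising host transcripts with EEDS and 0 to 1 with helveticoside, where the 1 was ZFAS1, without the EEDS control. Shares of all genes were given above for the chosen processing only. The counts under the alternatives, here and for the NMD factors below, have no such share beside them. The cause was not tested.

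The NMD factor counts, whose alternatives were also added after seeing the data, moved as well. The number rising with each agent was 4 in place of 2, with SMG5 and UPF1 added, for the signal as scanned, normexp, the 75th percentile and the probes or genes well above background, and for EEDS also with the deposited table. The mean over all probes gave 5 with EEDS. Dose as a share of the top dose gave 1 with EEDS and 0 with helveticoside. Leaving out each array in turn gave 0 to 3 with EEDS and 0 to 2 with helveticoside. The median ratio of the NMD factors at 60 nM was 0.66 with the mean over all probes, 0.62 with the 75th percentile and 0.77 with the control of the other series, in place of 0.35.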

Other observations

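Some protein-coding genes also carry snoRNAs in their introns. Of 35 measured, 2 were called as rising with both agents (TNPO2 and RPLP2) and 2 as falling with both (EEF2 and HSPA8), by limma. These counts are near the shares of all genes, which were 7.26% rising and 7.85% falling with EEDS and 5.49% and 5.81% with helveticoside. TNPO2, a nuclear import receptor, had EEDS ratios of 0.89, 1.37 and 2.06 and helveticoside ratios of 0.37, 1.09 and 1.94. HSPA8, the constitutive chaperone of the heat shock family, had ratios of -2.52, -3.70 and -4.32 and of -1.13, -3.22 and -4.16, the largest fall of the list. EEF2, which moves the ribosome along the mRNA, had ratios of -1.08 and -0.98 at the top doses. The median ratio of the 35 was 0.00 at 20 μg/mL EEDS and 0.07 at 60 nM helveticoside. The 0.00 is the ratio of RPS2, whose brightest probe had the same level, 19.44, on all 8 arrays after quantile normalization. Its other probes had ratios of -0.06 and -0.36 at 20 μg/mL.

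The array held probes for 26 snoRNA and scaRNA genes, none of them from the 10 host genes described above, and 25 were well above background on all arrays. Of these, 8 were more than 2-fold lower at the top dose of both agents and 0 were more than 2-fold higher. Whether these probes read the mature small RNAs or longer precursors was not tested. Among the 11491 genes of any kind that passed this call on every array, the shares were 11.3% lower and 9.26% higher. SCARNA13 had ratios of -3.02 and -2.17 at the top doses and SNORA62 of -2.05 and -1.96, both named after their values were seen.

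Of 8 epithelial markers, KRT18, KRT19 and CDH1 were called as falling with both agents and KRT8 with EEDS. Falling were 7.85% of all genes with EEDS and 5.81% with helveticoside. CDH1 had ratios of -2.70 and -2.71 at the top doses. Of 10 housekeeping genes, 0 were called in either direction with either agent by limma. An unadjusted p under 0.05 was found for 4 with EEDS (3 rising, 1 falling) and 3 with helveticoside (1 rising, 2 falling). At that p, 16.4% of all genes were rising and 17.0% falling with EEDS, and 14.6% and 15.2% with helveticoside. Among the 7 markers of other cell types limma called 0, also at an unadjusted p under 0.05.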
